A study of Homo sapiens with 8 samples.

Results

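A group of 9 established target genes of the transcription factor p53 was followed on 8 arrays of ovarian cancer cells: CDKN1A, BTG2 and GADD45A, which act in growth arrest, MDM2, TP53INP1, the sestrins SESN1 and SESN2, RRM2B and ZMAT3. All probes whose RefSeq accession belongs to these 9 genes were taken, which gave 14 probes among the 50599 of the array and 9 of 20499 named genes; MDM2 had 4 probes, TP53INP1 and RRM2B had 2 each, and the other members had 1 each. All 9 passed the filter on dim probes, that is, both arrays of at least 1 group were well above background. For 3 of them this held through the arrays of one cell line only, MDAH for CDKN1A and SKOV3 for TP53INP1 and ZMAT3, and the other 6 were well above background on all 8 arrays.

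RNA came from a pair of human epithelial ovarian cancer lines, MDAH-2774 (MDAH) and SKOV3. In each line, 2 silenced samples carried lentiviral shRNAs against the RNA-binding protein SFPQ (sh-SFPQ#2 in one and sh-SFPQ#3 in the other) and 2 control samples were not silenced. The labels call both controls control-shRNA cells, whereas the study's supplementary methods list parental and sh-ctrl cells, so it is not known here which control carried the control shRNA. No platinum was named for these samples. Each array was one single-colour Agilent hybridisation, the number of arrays limits the precision, and nothing states that the controls of a line came from separate cultures. The spread between silenced samples of a line includes that between the shRNAs, whereas the spread between controls may be technical. The many differences between the lines cannot be told apart from one another. Likewise a group cannot be told apart from its place on the slide.

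p53 is a tetrameric transcription factor that is kept low by the ubiquitin ligase MDM2 and rises when DNA is damaged or the cell is stressed. It binds a response element made of a pair of similar half-sites and raises genes that stop the cell cycle, repair DNA, limit oxidative damage or start apoptosis, and one of these genes is MDM2 itself, which closes a negative feedback loop. Most of these genes also respond to other transcription factors, and can be transcribed in cells that lack p53. CDKN1A encodes p21, an inhibitor of cyclin-dependent kinases through which p53 lowers many cell cycle genes by way of the DREAM repressor complex.

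Short stretches of promoter show what such an element looks like in members of the group. Promoter windows from RefSeq (build GRCh38.p14), which run from 250 bases before to 50 after an annotated start, were found for 6 of the 9 members. They were searched, with known elements in mind, for the p53 response element as 2 adjacent half-sites with the core C and G of each kept and at most 3 mismatches. The motif reads the same on both strands. The 6 members had 12 windows, and a match was found for 2 of these members, MDM2 and SESN1. Over all windows 392 of 35116 had a match, or 1.12%, which is a share of windows and not of genes. The MDM2 match lies at 68808923 to 68808942 on the plus strand, has 2 mismatches and begins 94 bases before an internal start. The SESN1 match lies at 109009018 to 109009037 on the minus strand, has 3 mismatches and begins 49 bases before an internal start. The 120 bases before each start, chr12:68808897-68809016 for MDM2 and chr6:109008989-109009108 for SESN1, are printed 5′ to 3′ with the match in capitals, since both genes passed the threshold between the lines.
MDM2: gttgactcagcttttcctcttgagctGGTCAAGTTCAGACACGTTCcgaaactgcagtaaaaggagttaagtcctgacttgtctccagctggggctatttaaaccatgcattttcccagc
SESN1: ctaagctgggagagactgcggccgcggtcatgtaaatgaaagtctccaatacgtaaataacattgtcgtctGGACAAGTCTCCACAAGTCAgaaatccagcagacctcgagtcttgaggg

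A match is a description of letters and not evidence of binding in these cells, and the absence of one in the other windows says only that these letters are not in them.

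All levels below are log2 signals relative to the 75th percentile of their array, and they describe 1 probe each, so that levels of different genes are not set against each other, except that the probe with the highest signal in a list of markers is named and the list's signals are summed. The 75th percentile lay between 244 and 496 intensity units, lowest on the array of sh-SFPQ#3 in MDAH, and the share of probes well above background on an array ran from 47.7% to 57.0%. Epithelial and ovarian markers were read first. All 7 epithelial markers were well above background on the 4 MDAH arrays and 6 or 7 of them on the SKOV3 arrays, with KRT18 the brightest in MDAH and KRT7 in SKOV3. PAX8, a transcription factor of Müllerian epithelium, was well above background on all 8 arrays, whereas WT1, a marker of serous ovarian carcinoma, was so on the 4 MDAH arrays and on none of SKOV3. Of the other ovarian carcinoma markers, MSLN was above background on no array, MUC16 on the 2 silenced SKOV3 arrays and EMX2 on 5 of 8, the 4 of MDAH among them, so that the ovarian markers were met in part. Each array averages the cells of a culture, so that fewer cells with a transcript and less of it per cell cannot be told apart.

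SFPQ itself was lowered in both lines, which checks the labels. Its level was 3.64 and 3.91 on the MDAH controls against 2.45 with sh-SFPQ#2 and 2.10 with sh-SFPQ#3, and 4.84 and 4.66 on the SKOV3 controls against 3.01 and 2.48. The groups did not overlap in either line. SFPQ fell by 1.50 on the log2 scale in MDAH (SE 0.23, limma adjusted p = 0.0328) and by 2.01 in SKOV3 (SE 0.23, limma adjusted p = 0.0299). The call passed in 7 of 10 other settings in MDAH and in 8 of 10 in SKOV3. Both calls were lost when a line's own arrays were fitted alone (limma adjusted p = 0.0628 and 0.157). With 1 array left out at a time each of these passed in 3 of 8 fits, with an adjusted p of up to 0.218 in MDAH without its control 1 and 0.118 in SKOV3 without its control 1.

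TP63 and TP73, whose proteins can bind similar elements, did not pass the filter: TP63 was not well above background on any array, and the brighter TP73 probe was so on 2 of 8.

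Target genes differed between the lines in both directions. Of the 6 members well above background on all 8 arrays, 4 passed the threshold between the controls of the lines, MDM2 and SESN1 higher in SKOV3 and BTG2 and SESN2 lower. Of the 12378 genes measured on all 8 arrays, 54.8% passed it, 32.6% higher and 22.2% lower in SKOV3, so that passing it was common to most genes; of all 15547 genes tested it was 57.5%, 30.7% higher and 26.8% lower. The median difference of the 6 was 0.40, and that of the genes measured on all arrays 0.15. When only those genes were fitted, GADD45A passed as well (adjusted p = 0.0341). CDKN1A, TP53INP1 and ZMAT3 entered the test through the line in which they are bright, so their differences are given one by one and are not counted.

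MDM2, the ubiquitin ligase that degrades p53, was brighter in SKOV3 on all 4 of its probes. On the brightest probe its level was -1.28 and -1.38 on the MDAH controls and 0.55 and 0.62 on the SKOV3 controls. The difference was 1.92 (SE 0.19, limma adjusted p = 0.000236), and on the other 3 probes it was 0.73, 0.84 and 0.96 (limma adjusted p = 0.0452, 0.00274 and 0.00280). The probes thus shared the direction and differed in size. MDM4, the relative of MDM2 that masks the activation domain of p53, went the other way: on its brightest probe it was 2.74 and 2.59 on MDAH controls and 1.93 and 1.79 on SKOV3 controls, a difference of -0.81 (limma adjusted p = 0.00476). Its other 3 probes were also lower in SKOV3, by -0.85, -1.53 and -1.24.

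The sestrins, which restrain mTORC1 and oxidative damage, split. SESN1 was -3.07 and -2.97 on MDAH controls and -1.09 and -1.28 on SKOV3 controls, higher in SKOV3 by 1.84 (SE 0.19, limma adjusted p = 0.000296). SESN2 was -0.12 and -0.61 on MDAH controls and -1.88 and -1.85 on SKOV3 controls, a difference of -1.50 (SE 0.28, limma adjusted p = 0.00376). For neither gene did the control arrays of the lines overlap.

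TP53INP1, a nuclear protein that assists p53 in the death response, had levels of -4.27 and -4.57 on MDAH controls, the second not well above background, against -0.11 and -0.35 on SKOV3 controls. With 1 of 2 MDAH controls above background the fitted difference was 4.19 (SE 0.70, limma adjusted p = 0.00228), and its size depends on readings close to background. Its second probe was well above background on 2 of 8 arrays, both silenced SKOV3 arrays, and gives no fold between controls. ZMAT3, a zinc finger protein that binds RNA, was below background on all 4 MDAH arrays, between -5.81 and -5.54, and was -2.70 and -3.22 on SKOV3 controls. It was at least 3.77-fold brighter in SKOV3 (limma adjusted p = 0.000168). Here and below, "at least" gives a bound, in which a group that is not well above background is set to the dimmest signal that is so on the array, or to its own signal where that is higher. Both genes therefore had clear signal in SKOV3 and little or none in MDAH. The size of these differences depended on the background correction: with normexp, which adds an offset of 50 intensity units and so draws dim readings together, they were 2.20 for TP53INP1 and 0.69 for ZMAT3 (limma adjusted p = 0.000227 and 0.00345), 1.13 for SESN1 and, of the genes below, -0.53 for CDKN1A (0.000119 and 0.00784).

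CDKN1A and BTG2, of the growth arrest genes, were lower in SKOV3, and GADD45A was not. CDKN1A was -2.99 and -3.32 on MDAH controls and was not well above background on any SKOV3 array, so that MDAH was at least 1.78-fold brighter (limma adjusted p = 0.00115). BTG2, an antiproliferative protein that speeds the decay of mRNA, was 1.37 and 1.48 on MDAH controls and -1.55 and -1.57 on SKOV3 controls, a 7.95-fold difference (log2 -2.99, SE 0.28, limma adjusted p = 0.000197). GADD45A, a stress protein of repair and arrest, was 4.54 and 4.57 on MDAH controls and 4.96 and 5.74 on SKOV3 controls. Its arrays did not overlap, but the difference of 0.79 missed the threshold (limma adjusted p = 0.0502). RRM2B, the p53-induced subunit of ribonucleotide reductase, differed by 0.01 on its brighter probe, with a 95% interval from -0.53 to 0.55. Its other probe, well above background on all 8 arrays, read lower in SKOV3 without overlap. It was -2.85 and -2.88 on MDAH controls and -3.39 and -3.40 on SKOV3 controls, so the probes differed.

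**Figure D1:**
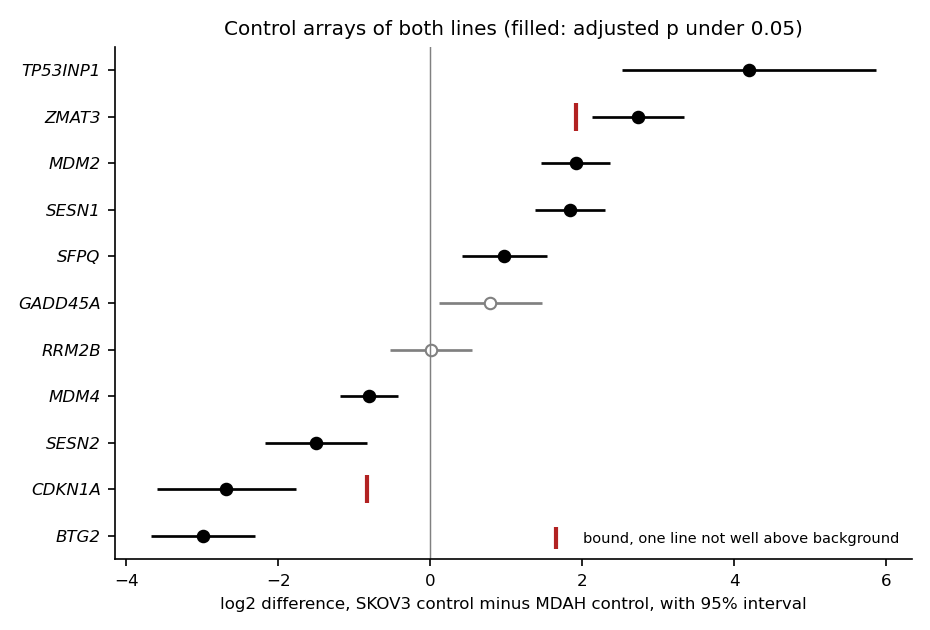
Log2 difference between the control arrays, SKOV3 minus MDAH (horizontal axis), with 95% intervals from limma, for the 9 members, MDM4 and SFPQ; filled points passed an adjusted p of 0.05, and red bars are bounds where one line was not well above background. TP53INP1, dim in MDAH, is at 4.19 and BTG2 at -2.99, and members lie on both sides of 0.

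The arrays were made to ask which pathways change with SFPQ silencing and might lie behind the death of the silenced cells. No member passed the threshold within MDAH, where 2.03% of all genes did, nor within SKOV3, where 0.997% did; at an unadjusted p under 0.05 there were 2 and 3 of the 9, beside 23.1% and 19.5% of all genes. The 3 in SKOV3 include CDKN1A, which was below background there; of the 6 members measured on all 8 arrays there were 1 in MDAH and 2 in SKOV3. Averaged over both lines, 1 member passed, SESN2, against 5.66% of all genes (2.02% higher and 3.64% lower). The median difference of the 6 members measured on all 8 arrays was 0.28 in MDAH and 0.32 in SKOV3. Over all 15547 genes tested it was 0.10 and -0.04. These, like the shares of all genes above, include genes that were dim on some arrays.

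Markers of other cell types were measured beside these values. The fibroblast list of 4 genes had its brightest, COL1A1, well above background on all 8 arrays, while COL3A1 and LUM were so on none and DCN on the 4 SKOV3 arrays. COL1A1 was -0.89 and -0.58 on MDAH controls, 0.20 and 0.61 on silenced MDAH arrays, -2.16 and -2.76 on SKOV3 controls and -1.50 and -0.96 on silenced SKOV3 arrays, an average of 1.18 (SE 0.20, limma adjusted p = 0.0296), and the log2 of the list's summed level went from -0.80 and -0.53 to 0.25 and 0.66 in MDAH and from -1.66 and -2.02 to -0.55 and -0.32 in SKOV3. Of the leukocyte list of 4, CD68 was the brightest, CD3E was above background on no array, and the log2 summed level lay between 0.85 and 1.59 on the 4 controls and was 2.34 and 2.41 on the silenced MDAH arrays and 1.54 and 0.96 on the silenced SKOV3 arrays. The endothelial list of 3 was led by CDH5, with PECAM1 well above background on 1 of 8 arrays and a log2 summed level between -2.78 and -1.79. DCN was -3.90 and -3.85 on SKOV3 controls and -1.82 and -2.18 on silenced SKOV3 arrays, a difference of 1.88 (limma adjusted p = 0.0964). No leukocyte or endothelial gene passed the threshold on silencing. Of the ovarian carcinoma list MUC16 passed in the average (limma adjusted p = 0.0395); it was below background in MDAH and on the SKOV3 controls, and in SKOV3 the silenced arrays were at least 2.59-fold brighter. The part of these genes in the results was not tested.

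**Figure D2:**
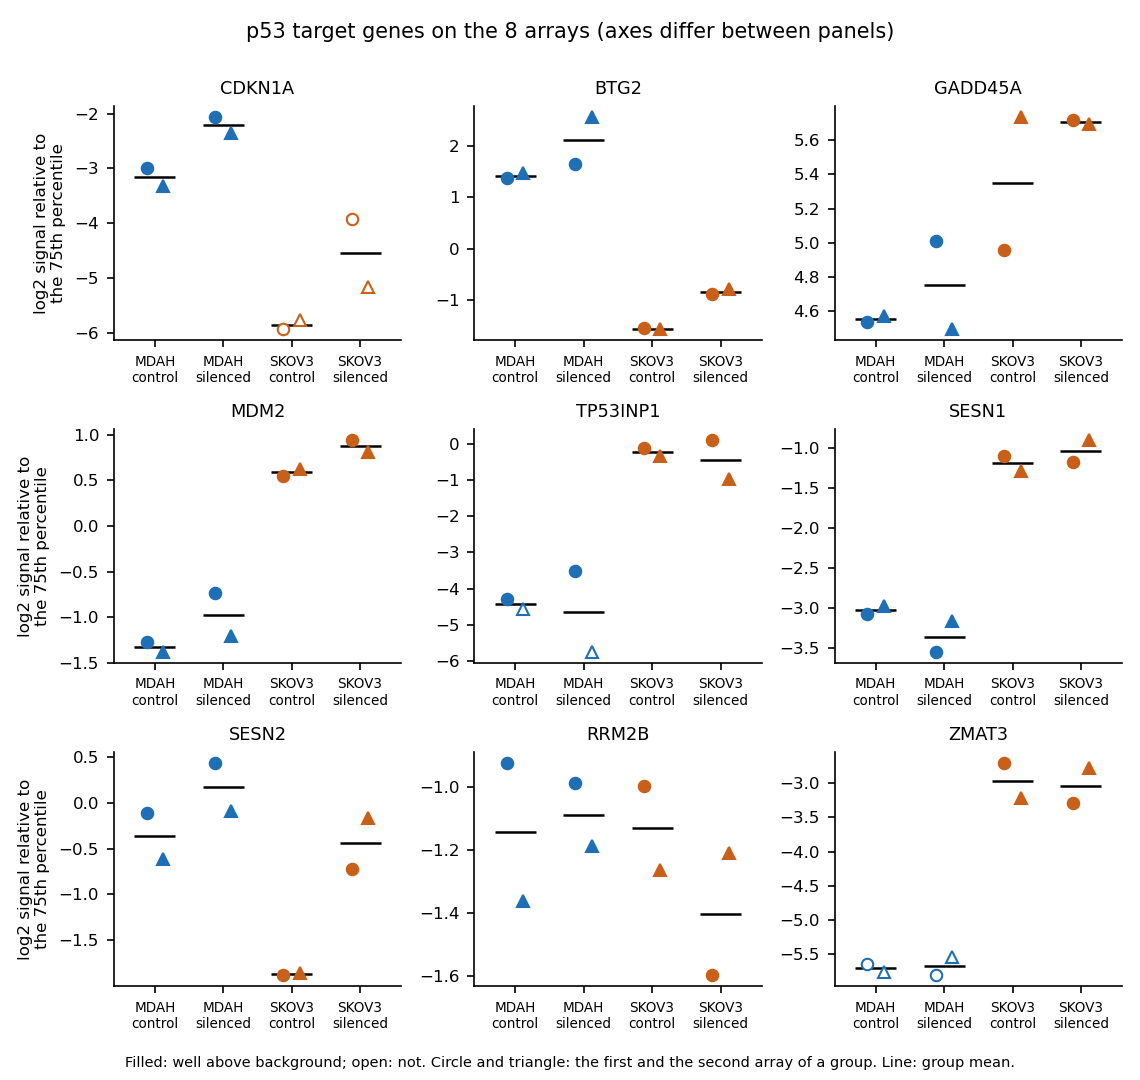
Log2 signal relative to the array's 75th percentile (vertical axes, which differ between panels) of the 9 members in the 4 groups, 2 arrays each; filled points were well above background and lines are group means. In both lines the silenced arrays of CDKN1A, BTG2, MDM2 and SESN2 lie above both controls, while RRM2B overlaps.

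SESN2 rose on silencing over both lines. Its levels were 0.43 with sh-SFPQ#2 and -0.09 with sh-SFPQ#3 in MDAH, against -0.12 and -0.61 on the controls, and -0.72 and -0.16 in SKOV3, against -1.88 and -1.85. All silenced arrays were above both controls of their line, though in MDAH by as little as 0.03 between the nearest pair. The average was 0.98, or 1.97-fold (SE 0.20, 95% interval 0.50 to 1.45, limma adjusted p = 0.0423). The difference was 0.54 in MDAH (adjusted p = 0.300) and 1.42 in SKOV3 (adjusted p = 0.0790), and the 2 effects did not differ past the threshold (-0.89, adjusted p = 0.349). This call rests on the full set of arrays: with 1 array left out at a time the average stayed between 0.84 and 1.12 but passed in 1 of 8 fits, with an adjusted p of up to 0.141 without control 2 of MDAH. It was also lost with the replicate block (adjusted p = 0.0542) and without the filter on dim probes (0.0732).

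BTG2 was higher on every silenced array and missed the threshold. It was 1.66 and 2.58 on the silenced MDAH arrays and -0.89 and -0.79 on the silenced SKOV3 arrays. The average of 0.71 (SE 0.20, 95% interval 0.23 to 1.19) had a limma adjusted p of 0.0857, and the difference was nearly the same in both lines, 0.69 and 0.72. In MDAH most of it came from sh-SFPQ#3, 1.15 above the mean control, against 0.24 for sh-SFPQ#2.

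CDKN1A can be read in MDAH only. Its levels with sh-SFPQ#2 and sh-SFPQ#3 were -2.06 and -2.35, both above the controls. The difference of 0.95, 1.93-fold, had a 95% interval from 0.03 to 1.87 and a limma adjusted p of 0.207. In SKOV3 the probe read -5.93 and -5.76 on controls and -3.91 and -5.15 on silenced arrays, with none of the 4 well above background, so no fold is given there.

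MDM2 did not pass the threshold on silencing. On the brightest probe it was -0.73 and -1.21 on the silenced MDAH arrays and 0.95 and 0.81 on the silenced SKOV3 arrays, each above both controls of its line. The average was 0.32 (95% interval 0.00 to 0.65, limma adjusted p = 0.185). With 1 array left out at a time this average ran from 0.21, without sh-SFPQ#2 of MDAH, to 0.44, without sh-SFPQ#3 of MDAH. On the other 3 probes the average was 0.13, 0.16 and 0.20, and none of the 4 passed. The probe with 10 spots per array differed in SKOV3 by -0.01, with a 95% interval from -0.41 to 0.39.

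**Figure D3:**
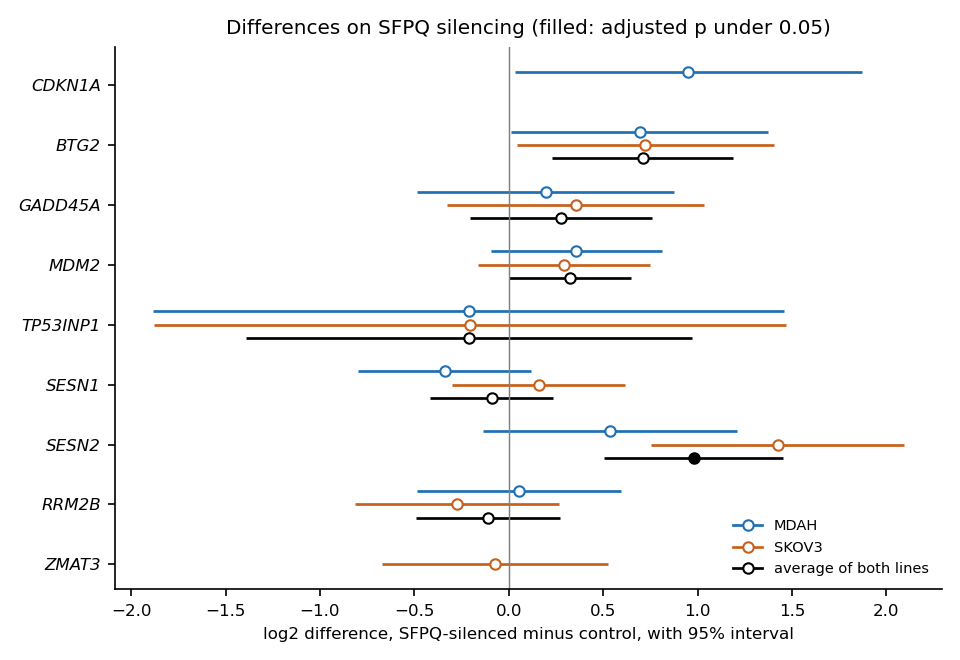
Log2 difference, SFPQ-silenced minus control (horizontal axis), with 95% limma intervals, for the 9 members in MDAH, in SKOV3 and averaged; the filled point passed an adjusted p of 0.05. SESN2 is filled at 0.98; CDKN1A in SKOV3 and ZMAT3 in MDAH, and their averages, are left out because those groups were below background.

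The other 5 members gave no common direction. GADD45A was 5.01 and 4.50 on the silenced MDAH arrays and 5.72 and 5.69 on those of SKOV3, and overlapped the controls in both lines (average 0.27, 95% interval -0.21 to 0.76). SESN1 was -3.56 and -3.17 in silenced MDAH cells, below both controls, and -1.16 and -0.89 in silenced SKOV3 cells, with a difference of -0.34 in MDAH and 0.16 in SKOV3 (adjusted p = 0.333 and 0.676). RRM2B lay between -1.60 and -0.92 over all 8 arrays, with an average of -0.11 (95% interval -0.49 to 0.27), and its second probe averaged 0.24. ZMAT3 in SKOV3 was -3.29 and -2.78 on silenced arrays, a difference of -0.07 (95% interval -0.67 to 0.53).

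TP53INP1 read lower with sh-SFPQ#3 than with sh-SFPQ#2. With sh-SFPQ#2 it was -3.52 in MDAH and 0.11 in SKOV3, above the controls, and with sh-SFPQ#3 it was -5.76, not well above background, and -0.98, below them. It was the only member past the threshold between the shRNAs (limma adjusted p = 0.0457), where 3.02% of all genes passed, and since one of the readings lies below background no size is given. The call passed in 2 of 8 fits with 1 array left out, with an adjusted p of up to 0.142 without sh-SFPQ#2 of MDAH. It passed in 3 of 8 other settings (normexp, median centring and an eBayes trend) and missed under quantile normalization, in the deposited table, without the filter, with the replicate block (adjusted p = 0.0757, 0.0761, 0.0980 and 0.0924) and with the mean of both probes (0.188).

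Counting arrays, 3 of the 6 members measured on all 8 arrays (BTG2, MDM2 and SESN2) had both silenced arrays above both controls in each line, beside 13.7% of the genes so measured and 12.4% of all genes. For MDM2 this held on 2 of its 4 probes. CDKN1A read the same way, with its SKOV3 side below background. Of the 9 members 0 had them below in each line. A difference between the lines in the response was not detected for the 6 members measured on all 8 arrays: 0 passed the threshold in the difference of the effects, where 0.0965% of all genes did, and 0 had an unadjusted p under 0.05, beside 14.9% of all genes. The intervals were wide, from -1.84 to 0.06 for SESN2. CDKN1A and ZMAT3 had no measured response in one of the lines.

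The members' patterns were also set side by side over the 8 arrays, after each line's mean was taken off, which leaves deviations that share the arrays and their silencing. The highest Pearson r was that of CDKN1A and MDM2, 0.82, followed by MDM2 and SESN2 at 0.75. GADD45A and MDM2 had 0.71, CDKN1A and SESN2 0.71, and CDKN1A and BTG2 0.62. The lowest was that of GADD45A and ZMAT3, -0.69, with BTG2 and TP53INP1 at -0.64 and SESN1 and MDM2 at -0.64. ZMAT3 was well above background on 4 of the 8 arrays and TP53INP1 on 6, so their values rest in part on background readings. The genes most like CDKN1A were PRDX5 (r = 0.99), SCN3A (0.98, well above background on 5 arrays) and LINC00523 (0.97), and those most like MDM2 were ROPN1L (0.97), CLIP1-AS1 (0.97, well above background on 2 arrays) and OSBPL2 (0.96). These are the highest values over all tested genes and rest on few arrays, 4 of which were below background for CDKN1A, and they describe likeness only.

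A wider list of 59 other p53 targets held few calls. Of the 56 tested, 40 were higher in silenced MDAH cells (median 0.21), 35 in silenced SKOV3 cells (median 0.13) and 41 in the average (median 0.20). Of all genes 59.8%, 46% and 55.1% were higher in the same order, with medians of 0.10, -0.04 and 0.04. In either line 0 of the 56 passed the threshold. In MDAH 13 and in SKOV3 16 had an unadjusted p under 0.05, beside 23.1% and 19.5% of all genes. In the average, where 5.66% of all genes passed, 1 of the 56 did, TNFRSF10B, which encodes the TRAIL receptor DR5. It was 4.91 and 5.15 on the MDAH controls against 5.70 and 5.84 on the silenced arrays, and 4.23 and 4.44 on the SKOV3 controls against 4.92 and 5.13. The groups did not overlap in either line, and the average was 0.71 (SE 0.12, limma adjusted p = 0.0281); it passed in 2 of 8 fits with 1 array left out, with an adjusted p of up to 0.132 without control 1 of MDAH.

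Among the targets well above background on all 8 arrays, the highest averages beside it were those of TIGAR, which lowers glycolytic flux, and EPHA2, an ephrin receptor. TIGAR was -0.12 and 0.00 on MDAH controls, 0.70 and 1.06 on silenced MDAH arrays, -2.40 and -1.87 on SKOV3 controls and -1.65 and -1.16 on silenced SKOV3 arrays, with an average of 0.83 (adjusted p = 0.0505). EPHA2 averaged 0.73 (adjusted p = 0.0540), with 1.05 in MDAH and 0.41 in SKOV3. Under other settings the TIGAR average passed in 6 of 9 (limma adjusted p from 0.0211 to 0.0836). The EPHA2 average passed in 4 of 9 (limma adjusted p from 0.0286 to 0.0898). The lowest of these were FUCA1, a lysosomal fucosidase, at -0.41, the damage sensor DDB2 at -0.38 and the apoptosome scaffold APAF1 at -0.37, with adjusted p of 0.468, 0.120 and 0.229. SERPINB5 and RAP2B, named after their values were seen, read further out but were well above background on 3 and 7 of 8 arrays only, and no size is given (adjusted p = 0.179 and 0.305).

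By role, beside 59.8% of all genes higher in MDAH (median 0.10) and 46% in SKOV3 (median -0.04), the metabolism and redox genes had the highest median in SKOV3, 0.62 with 8 of 10 higher, and 0.27 with 7 of 10 in MDAH. The counts and medians by role include genes that were dim in one line. Among the metabolism and redox genes, GLS2 was well above background on 5 of 8 arrays and on neither SKOV3 control, and it counts towards the SKOV3 median. The death genes were higher in 16 of 18 in MDAH (median 0.28) and 13 of 18 in SKOV3 (median 0.23); both silenced arrays were above both controls for 8 and 7 of them, as for 35.6% and 25.9% of all genes. The arrest genes were higher in 6 of 10 in each line, and the repair genes in 3 of 6 and 2 of 6. Signalling and surface genes were higher in 8 of 12 and 6 of 12.

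Among 19 regulators and relatives of p53, 17 were tested and 2 passed in the average, where 5.66% of all genes did: HIPK2 and ATM, and each had another probe that went the other way. HIPK2, a kinase that phosphorylates p53, had 4 probes. The probe of NM_001113239, used in the fit as the brightest on average, was -1.06 and -0.80 on MDAH controls and 0.43 and 0.99 on silenced arrays, and -1.68 and -1.96 on SKOV3 controls and -0.60 and -0.41 on silenced arrays. In SKOV3 this probe was higher by 1.31 and missed the threshold (limma adjusted p = 0.0653). It rose by 1.64 in MDAH (adjusted p = 0.0263) and by 1.48 in the average (SE 0.16, limma adjusted p = 0.0106); with 1 array left out the average passed in 6 of 8 fits, with an adjusted p of up to 0.0814, and the difference in MDAH in 5 of 8, with one of up to 0.258, both without control 1 of MDAH. The 3 probes of NM_022740 were lower on every silenced array of both lines. The one that was well above background on all 8 arrays went from 0.70 and 0.37 to -0.94 and -2.19 in MDAH and from 0.05 and -0.04 to -1.73 and -2.69 in SKOV3, an average of -2.16 (SE 0.33, limma adjusted p = 0.0187, each probe fitted on its own). The other 2 were well above background on 6 and 5 of 8 arrays, so no size is given (limma adjusted p of the average = 0.0204 and 0.0590). No single direction can therefore be given for HIPK2 RNA.

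**Figure D4:**
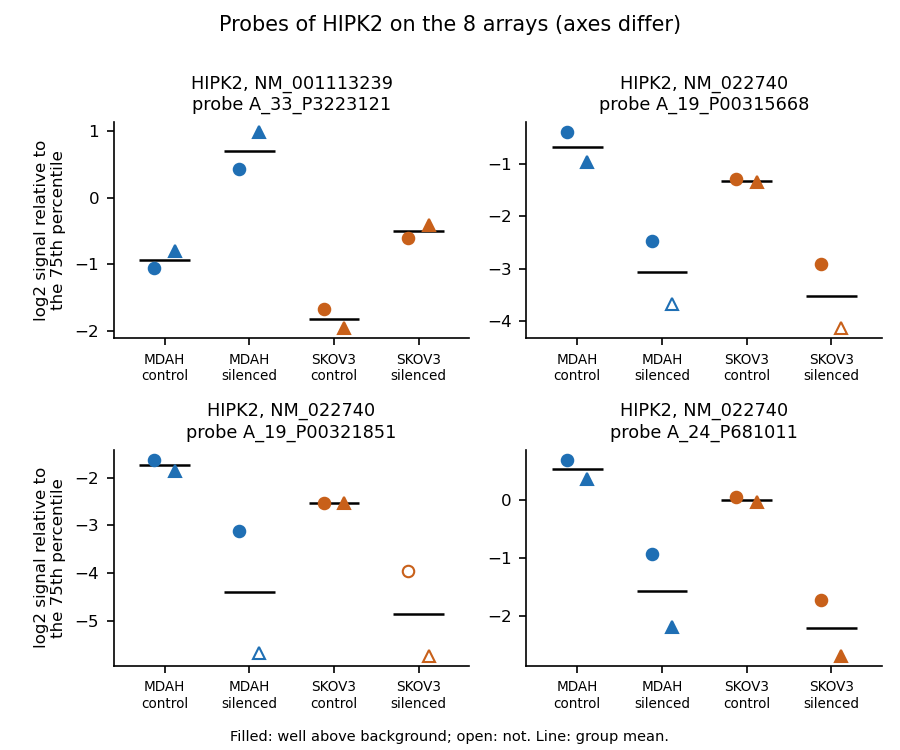
Log2 signal relative to the array's 75th percentile (vertical axes, which differ) in the 4 groups, for the 4 probes of HIPK2; points are arrays, filled where well above background, and lines are group means. The NM_001113239 probe is higher on every silenced array, while the other 3 are lower on every silenced array.

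ATM, the kinase that signals double-strand breaks to p53, averaged -0.72 on its brighter probe (SE 0.14, limma adjusted p = 0.0361), which was 0.98 and 0.95 on MDAH controls, 0.28 and -0.22 on silenced MDAH arrays, -0.63 and -0.53 on SKOV3 controls and -1.04 and -1.12 on silenced SKOV3 arrays. Its 10-spot probe averaged 0.31 (adjusted p = 0.182), and the mean of its probes -0.20 (adjusted p = 0.249). The call held in 6 of 9 other settings and was also lost under median centring and without the filter (adjusted p = 0.0665 and 0.0660). The brighter probe passed in 2 of 8 fits with 1 array left out, with an adjusted p of up to 0.149 without control 1 of MDAH.

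The last list held 24 cell cycle genes that p53 lowers through CDKN1A and DREAM, such as cyclin B1 and the mitotic kinase PLK1. Their differences had opposite signs in the lines, and no single gene passed the threshold. In MDAH 23 of 24 were higher after silencing (median 0.53, against 0.10 over all genes), and on 21 of them both silenced arrays were above both controls, as for 35.6% of all genes. In SKOV3 0 of 24 were higher (median -0.42, against -0.04), and on 19 both silenced arrays were below both controls, as for 32.1% of all genes. CDKN1A, listed for comparison, read higher on the silenced arrays of both lines, below background in SKOV3. At an unadjusted p under 0.05 there were 12 of 24 genes in MDAH and 11 of 24 in SKOV3, beside 23.1% and 19.5% of all genes; the adjusted p of limma stayed above the threshold for all 24 in both lines. The MDAH controls differed in these genes, control 2 being brighter than control 1 in 24 of 24 by a median of 0.36. Without control 1 the MDAH median was 0.32, with 23 of 24 higher and 2 at an unadjusted p under 0.05, and without control 2 it was 0.70. In SKOV3 it lay between -0.48 and -0.33 with 1 array left out, with 4 of 24 higher without sh-SFPQ#3.

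PLK1, named after its values were seen as the largest difference in MDAH, was 0.93 higher there (adjusted p = 0.0826) and -0.57 in SKOV3 (adjusted p = 0.212). BUB1, a kinase of the spindle checkpoint and the lowest in SKOV3, was 0.25 in MDAH and -0.86 in SKOV3 (adjusted p = 0.379 and 0.0719). CCNB2 was the 1 gene lower in MDAH, by -0.06.

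**Figure D5:**
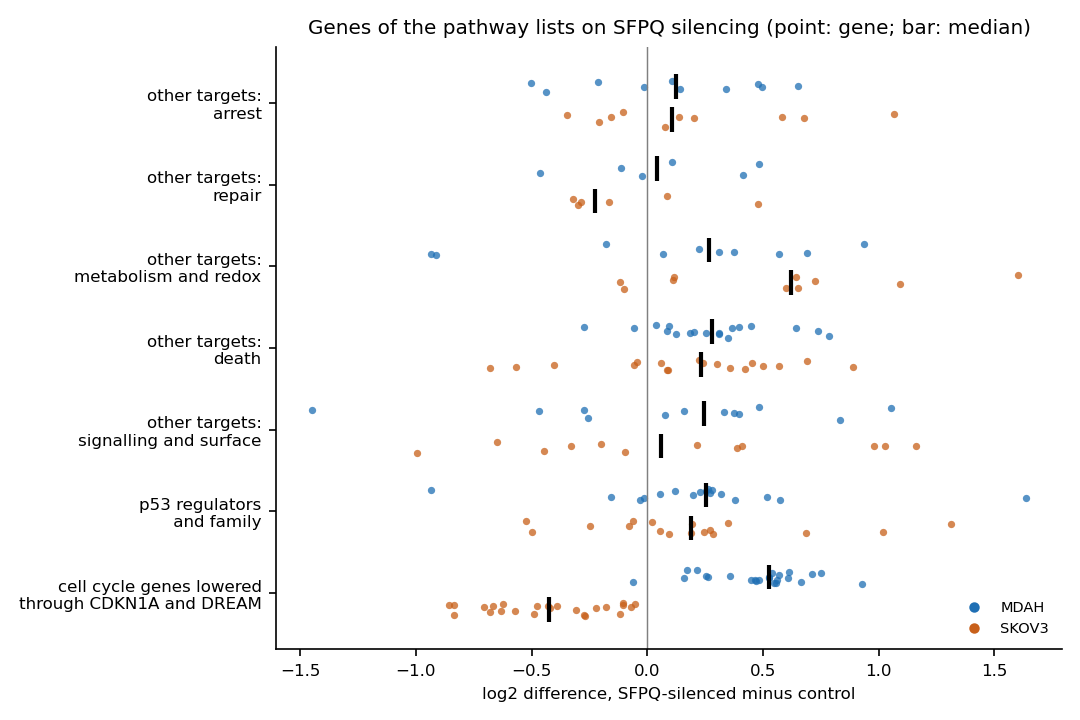
Log2 difference, SFPQ-silenced minus control (horizontal axis), of each tested gene (points) in the lists of other p53 targets, p53 regulators and cell cycle genes, in MDAH and SKOV3; black bars are medians. The cell cycle list lies at a median of 0.53 in MDAH and -0.42 in SKOV3, while the target lists overlap between the lines.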

How the data were processed

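RNA of 8 samples was hybridised to 1 Agilent slide. Per the file headers, the authors deposited background-subtracted, detrended Feature Extraction intensity per spot, not normalized between arrays, and a table of log2 values, which the scanner values showed to be quantile normalized and centred per probe (lowest correlation on an array 0.9999); the submitters' notes name version 10.7.3.1 of the software and the headers a later one. Control and outlier spots (209 to 310 per array) were left out, log2 signals of replicate spots were averaged, and each array was scaled to its 75th percentile. Probes were named by unversioned RefSeq accession (28170 probes, 20499 genes). The brightest probe stood for a gene. Tests used limma 3.58.1 in R 4.3.3 on all 8 arrays, for 15547 genes, with Benjamini-Hochberg adjustment and a threshold of 0.05. Named genes were the members, p53 regulators, list genes past the threshold and the 3 highest and 3 lowest averages among other targets well above background on all 8 arrays. Members and lists were chosen with earlier results of these data known. One gene is not reported here.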

Additional observations from a re-analysis of the deposited data

Results flagged for a closer look

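In the list of 24 cell cycle genes lowered through CDKN1A and DREAM, 17 had both silenced arrays above both controls in MDAH and both below in SKOV3, or 70.8%, a pattern that 8.39% of all genes showed. The opposite pattern held for 0 of the 24. Gene by gene, the difference between the effects was above 0 for 24 of 24, beside 59.2% of all genes (0.33 to 1.50, median 0.80, against 0.12 over all genes). An unadjusted p under 0.05 was met by 16 of them, beside 14.9% of all genes. No limma adjusted p in the list was under the threshold, which 0.0965% of all genes passed. The list as a whole was not tested. None of the 9 p53 target genes showed the pattern.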

How the results depend on the processing

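Of 42 single-gene results, 355 of 397 values under other settings kept their direction and side of the threshold, 17 no longer passed, 21 newly passed and 4 reversed. The reversals came with the mean of all probes, where HIPK2 was -1.38 in MDAH, -1.36 in SKOV3 and -1.37 in the average, and ATM 0.0378 in SKOV3, from the opposed probes. SESN2 passed in 7 of 9 other settings and missed without the filter (adjusted p = 0.0732) and with the replicate block (0.0542). The TNFRSF10B average passed in 8 of 9 other settings and missed without the filter (limma adjusted p = 0.0542). Median centring moved the median of all genes in MDAH from 0.10 to 0.21. With normexp background correction 2 members passed in the average, CDKN1A beside SESN2, without the filter 0, and with the replicate block 1, CDKN1A (adjusted p = 0.0331) in place of SESN2. CDKN1A was not well above background on any SKOV3 array. Its passes in SKOV3 or in the average, here and with 1 array left out, therefore rest in part on such readings and show no response shared by the lines. Between shRNAs 0 members passed under quantile normalization, the deposited table, no filter, detection on all 8 arrays, the mean of probes and the replicate block. Genes called in MDAH were 316, and 610 with normexp, 114 with detection on all 8 arrays, 475 with every probe on its own, 143 with the line's own arrays alone and 862 with the replicate block. In SKOV3 they were 155, and 305 with normexp, 39 without filter, 242 with every probe, 273 with an eBayes trend, 0 with own arrays alone and 688 with the block. In the average they were 880, and 1390 with normexp, 370 without filter, 1444 with every probe, 1382 with a trend and 1773 with the block. For the difference of effects they were 15, and 29 with quantile normalization, 23 with median centring, 28 with the deposited table, 25 with every probe, and 0 with normexp, detection on all arrays, a trend and the block. Between shRNAs they were 470, and 128 without filter, 795 with detection on all arrays, 813 with a trend and 112 with the block. The causes were not tested. Deviations of arrays with the same number correlated at r = 0.0777 for controls and 0.363 for shRNAs over 2 pairs, and the numbers were not taken to pair the samples.

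With 1 array left out, which assumes that the lone array varies like the other groups, members called ranged from 0 to 1 in MDAH, 0 to 1 in SKOV3, 0 to 2 in the average, 0 to 0 for the difference, 7 to 8 between controls (the 3 members dim in one line included) and 0 to 1 between shRNAs. Genes called ranged from 9 to 1091, 13 to 595, 32 to 1687, 0 to 182, 6757 to 9318 and 41 to 276 in the same order. The cell cycle list kept 23 or 24 of 24 genes higher in MDAH and 0 to 2 in SKOV3 under quantile normalization, median centring, normexp, the deposited table, detection on all arrays and the mean of probes, added after the data were seen.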

Other observations

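Between the controls, 38 of the 56 other p53 targets tested passed the threshold, 19 higher and 19 lower in SKOV3, beside 57.5% of all genes (30.7% higher and 26.8% lower), with a median of -0.05. The largest differences in each direction among the genes measured on all arrays, named after their values were seen, were those of THBS1, a matrix protein that restrains angiogenesis, and GDF15, a secreted stress cytokine. THBS1 was -0.84 and -0.61 on MDAH controls and 4.99 or more on both SKOV3 controls, a difference of 5.72 (SE 0.33, limma adjusted p = 2.37e-05). GDF15 was 5.24 and 4.13 on MDAH controls and 0.17 and 0.24 on SKOV3 controls, a difference of -4.48 (SE 0.54, limma adjusted p = 0.000548). After silencing GDF15 was 4.53 and 3.01 in MDAH and 1.60 and 2.01 in SKOV3. Its difference was -0.91 in MDAH and 1.60 in SKOV3, neither past the threshold (limma adjusted p = 0.351 and 0.187), nor was the difference of these effects, -2.51 (adjusted p = 0.259).

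Among the other targets, 1 passed between the shRNAs, the arrest gene RPRM (limma adjusted p = 0.0188), where 3.02% of all genes did. It was well above background on both MDAH controls and on sh-SFPQ#2 of MDAH, where it was -2.21, and on no other silenced array, so that no size is given.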
